A study of Mus musculus with 27 samples.

Results

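Transcripts of 8 enzymes that insert double bonds into fatty acids or lengthen them were followed in hepatocytes, the main cell type of the liver, across 9 inbred mouse strains. The genes were the desaturases Fads1, Fads2, Fads3, Fads6 and Scd2 and the elongases Elovl1, Elovl2 and Elovl5. They were found by their GENCODE M21 symbol and made up 8 of the 43346 genes in the table. All 8 passed the filter on low counts, as did 14482 genes in all. The 27 libraries came from female mice of 12 weeks, 3 biological replicates per strain. The laboratory strains were A/J, C57BL/6J, DBA/2J, 129S1/SvImJ, NOD/ShiLtJ (a model of autoimmune diabetes) and NZO/HlLtJ (a model of obesity), and the wild-derived strains were CAST/EiJ, PWK/PhJ and WSB/EiJ. No treatment or engineered allele was named for any group. Diet, feeding state and time of day were not given in the sources used here, and only females of a single age were studied. Histone modifications and DNA methylation, which the study also surveyed to relate them to genetic variation and expression, are not analysed here.

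Mammals obtain linoleic and alpha-linolenic acid from food and convert them in the endoplasmic reticulum of the hepatocyte into longer and more unsaturated fatty acids such as arachidonic and docosahexaenoic acid. Fads2 makes the first new double bond, Elovl5 adds carbons, Fads1 makes the next double bond, and Elovl2 together with Elovl5 lengthens the product. Further steps, the last of them a shortening in peroxisomes, lead to docosahexaenoic acid. Transcription of these genes in liver is known to be driven by the sterol response element binding proteins and lowered by dietary polyunsaturated fat. The other genes of the group have other substrates: Elovl1 lengthens saturated and monounsaturated acyl chains used in sphingolipids, Fads3 has been described as acting on sphingoid bases, and Scd2 makes monounsaturated fatty acids. The reaction of Fads6 is not established. The group therefore holds a core of polyunsaturated fatty acid enzymes (Fads1, Fads2, Elovl2 and Elovl5) and related enzymes of long acyl chains.

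Library totals ran from 17015932 to 35078483 estimated counts, with a median of 28344299. Levels below are CPM, counts scaled to a common library size, with library sizes adjusted by TMM, a method that matches the bulk of genes between libraries. The lowest count of any of the 8 genes in any library was 22, for Scd2. The 10 hepatocyte markers were detected in every library, with a summed level between 102000 and 318000 CPM. The 12 Kupffer cell markers (liver macrophages) and the 12 liver endothelial markers were also detected in every library, with sums of 37.1 to 456 and 67.3 to 859 CPM. None of the 11 lymphocyte or 7 neutrophil markers was detected in every library, and their sums reached at most 2.84 and 3.23 CPM. In these bulk samples, fewer cells of a type and less RNA per cell cannot be told apart.

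Measured per kilobase of the longest annotated transcript, the core enzymes were the abundant members. Elovl5 averaged 235 CPM per kb over the 27 libraries, Fads1 215, Elovl2 162 and Fads2 95.4. Elovl1 followed with 25.4 and Fads6 with 22.3 CPM per kb. Fads3 and Scd2 were scarce, with 0.945 and 0.42 CPM per kb. The order within the core is a matter of level per length only, since neither enzyme activity nor fatty acids were measured.

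All 8 genes differed among the strains in the edgeR quasi-likelihood test (adjusted p under 0.05). Of all genes tested, 74.2% did so, and a strain effect as such was therefore the common outcome in this data set. In the 36 comparisons between pairs of strains, adjusted over all genes and pairs together, 106 of the 288 tests on these genes passed, which is 36.8%, against 23.4% of all gene and pair tests. The log2 difference between the highest and the lowest strain mean had a median of 1.51 over the 8 genes and of 1.16 over all tested genes. The individual genes lay between 1.08 for Fads1 and 2.4 for Scd2. Strain accounted for between 62.4% (Fads1) and 87% (Elovl2) of the variance of log2 CPM among libraries. For no gene did any strain differ from its neighbour in the order of strain means by this test; the nearest to the threshold was Elovl2 in A/J against DBA/2J, with an edgeR adjusted p of 0.0501. The scale matters for the order of strains. Without TMM, on library totals alone, the median of all genes shifted on the log2 scale by -0.3 in WSB/EiJ, -0.28 in A/J and -0.14 in C57BL/6J and by 0.26 in NZO/HlLtJ, 0.2 in CAST/EiJ and 0.19 in 129S1/SvImJ. Of the 106 calls, 80 were kept on that scale, 26 were lost without a change of direction, and 25 other tests were newly called.

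**Figure D1:**
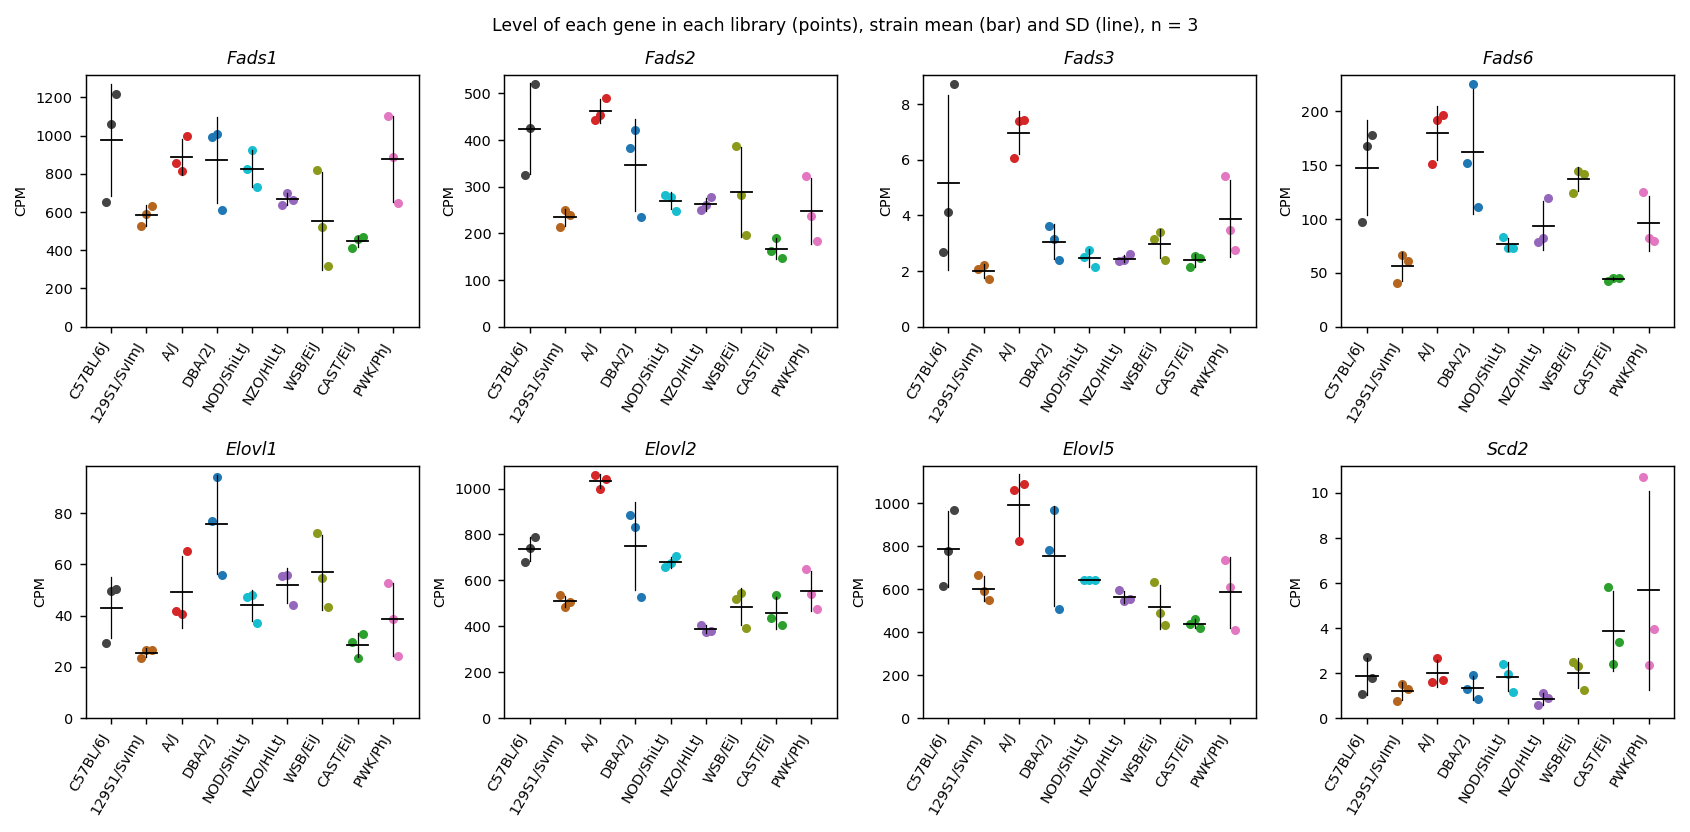
Level in CPM (vertical axis, starting at 0) of each of the 8 genes in each of the 27 libraries, by strain; points are libraries, bars strain means and lines the SD (n = 3). A/J had the highest mean of Fads2, Fads3, Fads6, Elovl2 and Elovl5, and CAST/EiJ the lowest mean of Fads1, Fads2, Fads6 and Elovl5; with library totals alone as the scale, A/J led for 3 of these genes, not for Fads2 and Fads6, and WSB/EiJ was lowest for Fads1 and Elovl5.

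Fads2, the enzyme of the first step, was highest in A/J and lowest in CAST/EiJ. It lies on the minus strand of chromosome 19 at chr19:10062765-10101746 (GRCm38, GENCODE M21). The A/J libraries had 442, 454 and 491 CPM, those of C57BL/6J 326, 425 and 521 CPM, and those of DBA/2J 384, 421 and 235 CPM. The CAST/EiJ libraries had 163, 191 and 147 CPM. All libraries of A/J and C57BL/6J thus lay above all libraries of CAST/EiJ, while DBA/2J replicate 4 lay well below the other two DBA/2J libraries. Fads2 in the remaining strains was intermediate: WSB/EiJ had 388, 282 and 197 CPM, NOD/ShiLtJ 282, 279 and 249 CPM, and NZO/HlLtJ 250, 260 and 278 CPM. PWK/PhJ had 324, 238 and 184 CPM of Fads2 and 129S1/SvImJ 214, 250 and 239 CPM. The spread was wide in WSB/EiJ and PWK/PhJ and narrow in NOD/ShiLtJ, NZO/HlLtJ and 129S1/SvImJ. A/J averaged 462 ± 25.8 CPM and CAST/EiJ 167 ± 22.6 CPM (SD, n = 3 each), a log2 difference of 1.47 ± 0.23 (SE; edgeR adjusted p 4.79e-05). Of the 36 pairs of strains, 15 differed in Fads2, among them CAST/EiJ below 6 of the other 8 strains, A/J above 6 and C57BL/6J above 5. Leaving out C57BL/6J replicate 1 or scaling by library totals alone made C57BL/6J the highest strain.

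Fads1, which makes arachidonic and eicosapentaenoic acid, lies next to Fads2 on the plus strand (chr19:10182888-10196877) and had the lowest share of variance between strains of the 8 genes. The C57BL/6J libraries had 650, 1060 and 1220 CPM, those of A/J 857, 815 and 996 CPM, and those of PWK/PhJ 1100, 887 and 646 CPM. DBA/2J had 992, 1010 and 613 CPM of Fads1 and NOD/ShiLtJ 824, 924 and 733 CPM. These 5 strains overlapped widely. NZO/HlLtJ had 635, 699 and 665 CPM, 129S1/SvImJ 525, 592 and 633 CPM, and CAST/EiJ 413, 457 and 469 CPM. The WSB/EiJ libraries, at 822, 521 and 317 CPM, ran from the level of A/J down to the lowest Fads1 value of all. C57BL/6J averaged 978 ± 295 CPM and CAST/EiJ 447 ± 29.2 CPM (SD, n = 3 each), a log2 difference of 1.13 ± 0.27 (SE; edgeR adjusted p 0.0031). In Fads1, 7 of 36 pairs differed, near the median of 8 pairs over all tested genes: CAST/EiJ was lower than 5 strains, and C57BL/6J was higher than 129S1/SvImJ and WSB/EiJ as well as CAST/EiJ. The strain at the top of the Fads1 order rested on single libraries: it was A/J without C57BL/6J replicate 4, DBA/2J without DBA/2J replicate 4 and PWK/PhJ without PWK/PhJ replicate 3. Without WSB/EiJ replicate 2 the count of pairs rose to 11 and WSB/EiJ took the lowest place, as it also did, with PWK/PhJ highest, with library totals alone.

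Because Fads1 and Fads2 were read in the same library, their ratio does not depend on how libraries are scaled. Fads1 per kb stood between 1.46 and 3.39 times as high as Fads2 per kb. The ratio was 3.1, 3.39 and 3.2 in the PWK/PhJ libraries, above every library of every other strain. NOD/ShiLtJ followed with 2.66, 3.02 and 2.69, whereas A/J had 1.77, 1.63 and 1.85 and WSB/EiJ 1.93, 1.68 and 1.46. The other 5 strains had means between 2.08 and 2.46, and only CAST/EiJ replicate 5, at 2.91, reached the NOD/ShiLtJ values. PWK/PhJ was thus a strain with a Fads1 level near that of A/J (means of 879 and 890 CPM) and a Fads2 level (249 against 462 CPM) that differed from A/J by 0.9 ± 0.23 on the log2 scale (SE; edgeR adjusted p 0.00612). In a permutation test of the log2 ratio over the strain labels of the 27 libraries (100000 permutations), the Fads1 to Fads2 ratio differed among the strains with an adjusted p of 2e-05 over 2 ratios; its raw p, 1e-05, is the smallest these permutations can give. The ratio was chosen after its values were seen, so this p is not independent evidence, and single strains were not tested against each other.

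Elovl5, the elongase of the middle step, lies on the plus strand at chr9:77917364-77984519. Highest was A/J, with 1060, 824 and 1090 CPM, followed by C57BL/6J with 615, 776 and 969 CPM and DBA/2J with 783, 970 and 506 CPM. NOD/ShiLtJ had 641, 643 and 643 CPM of Elovl5, 129S1/SvImJ 664, 593 and 547 CPM, and PWK/PhJ 735, 611 and 409 CPM. The lowest strain means were those of NZO/HlLtJ with 597, 545 and 552 CPM, WSB/EiJ with 631, 491 and 432 CPM and CAST/EiJ with 436, 462 and 421 CPM. Every A/J library exceeded every library outside C57BL/6J and DBA/2J, and the NOD/ShiLtJ libraries were almost equal. A/J averaged 992 ± 146 CPM and CAST/EiJ 439 ± 20.9 CPM (SD, n = 3 each), a log2 difference of 1.17 ± 0.22 (SE; edgeR adjusted p 0.000333). Of 36 pairs, 9 differed in Elovl5, near the median of 8 pairs over all tested genes. A/J was above 6 strains, C57BL/6J above WSB/EiJ and CAST/EiJ, and DBA/2J above CAST/EiJ. With library totals alone A/J was above 3 strains, and WSB/EiJ was the lowest strain, called below 7.

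Elovl2, which lengthens fatty acids of more carbons than most elongases and feeds the synthesis of docosahexaenoic acid, lies on the minus strand at chr13:41182381-41220405. A/J had 1060, 999 and 1040 CPM, C57BL/6J 679, 743 and 787 CPM, and NOD/ShiLtJ 656, 674 and 705 CPM. DBA/2J had 884, 834 and 529 CPM of Elovl2, the last from the same replicate 4 that was low in Fads1, Fads2 and Elovl5. All A/J libraries lay above all others. PWK/PhJ had 648, 539 and 477 CPM, 129S1/SvImJ 534, 485 and 505 CPM, and WSB/EiJ 519, 543 and 394 CPM. CAST/EiJ had 434, 535 and 405 CPM of Elovl2 and NZO/HlLtJ 407, 375 and 379 CPM. NZO/HlLtJ was therefore at the bottom, overlapping only with WSB/EiJ and CAST/EiJ. A/J averaged 1030 ± 32.2 CPM and NZO/HlLtJ 387 ± 18 CPM (SD, n = 3 each), a log2 difference of 1.42 ± 0.17 (SE; edgeR adjusted p 1.21e-06). Of 36 pairs, 19 differed in Elovl2, with A/J above 7 strains, NZO/HlLtJ below 5, and WSB/EiJ and CAST/EiJ each below 4. With library totals alone WSB/EiJ was lowest.

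Within a library, Elovl5 per kb was 1.14 to 2.02 times as high as Elovl2 per kb. NZO/HlLtJ stood apart with 2.02, 2.01 and 2.01, against at most 1.72 in any library of the other strains, whose means ran from 1.31 (NOD/ShiLtJ) to 1.63 (129S1/SvImJ). NZO/HlLtJ thus combined the lowest Elovl2 with an Elovl5 level of 565 ± 28.3 CPM (SD, n = 3) that was called lower than in A/J alone. The same permutation test over strains gave an adjusted p of 0.0073 for this ratio, which was also chosen after its values were seen.

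The sequences before the transcription starts of Elovl5 and Elovl2 are shown because the strain means of these elongases had an r of 0.899, given with its test among the correlations. They are the 250 bases before the RefSeq start (build GRCm38.p6), written 5′ to 3′ on the gene's own strand. Capitals mark matches to motifs searched on both strands. The GC box was searched as GGGCGG, the E-box as CACGTG, the TATA box as TATAAA and the CCAAT box by those letters. The core of the sterol response element was searched as CACNCCA, which also matches within its longer form TCACNCCAC, and the direct repeat 1 element of nuclear receptors by its consensus. The window searched also held the first 50 bases of the transcript.
Elovl5 chr9:77917115-77917364 plus strand: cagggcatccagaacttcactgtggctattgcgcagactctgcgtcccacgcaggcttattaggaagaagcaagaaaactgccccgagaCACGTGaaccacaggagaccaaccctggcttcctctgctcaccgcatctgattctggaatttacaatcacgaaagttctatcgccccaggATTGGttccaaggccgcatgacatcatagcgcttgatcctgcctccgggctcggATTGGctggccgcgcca
Elovl2 chr13:41220404-41220653 minus strand: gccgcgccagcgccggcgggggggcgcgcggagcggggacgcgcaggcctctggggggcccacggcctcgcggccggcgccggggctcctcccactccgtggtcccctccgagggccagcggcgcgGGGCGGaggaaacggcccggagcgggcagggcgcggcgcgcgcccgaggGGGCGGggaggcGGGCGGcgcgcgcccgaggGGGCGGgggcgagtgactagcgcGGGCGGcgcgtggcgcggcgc
The Elovl5 window held 2 CCAAT boxes, both read on the opposite strand, and 1 E-box that began 161 bases before the start. The Elovl2 window held 5 GC boxes, 84.7% of its bases being G or C, and no other motif searched, and the window of a second RefSeq start of Elovl2 held none of the motifs. Of all 32851 such RefSeq mouse windows, 37.4% held a CCAAT box, 7.15% an E-box, 35.7% a GC box, 18.4% the sterol element core, 1.24% its longer form, 13.6% a TATA box and 0.0396% a direct repeat 1. These sequences are those of the reference genome, not of each strain, and a match describes letters only.

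Fads3, the third gene of the chromosome 19 cluster (chr19:10041569-10060110, plus strand), was scarce, with 48 to 207 counts per library. A/J had 6.07, 7.39 and 7.43 CPM, C57BL/6J 2.7, 4.11 and 8.71 CPM, and PWK/PhJ 5.43, 3.47 and 2.75 CPM. In the other 6 strains Fads3 lay between 1.73 CPM in 129S1/SvImJ replicate 3 and 3.63 CPM in DBA/2J replicate 2. The A/J libraries were above every library but C57BL/6J replicate 4, and the C57BL/6J libraries ranged from the level of the low strains to the highest value of all. A/J averaged 6.96 ± 0.771 CPM and 129S1/SvImJ 2.01 ± 0.258 CPM (SD, n = 3 each), a log2 difference of 1.79 ± 0.3 (SE; edgeR adjusted p 0.000106). Of 36 pairs, 12 differed, 7 of them with A/J as the higher strain and 4 with C57BL/6J; with a fit on only the 6 libraries of each pair, 7 did. The 3 strains with the highest Fads3 means also had the highest mean sums of Kupffer cell markers, with 223 CPM in A/J, 263 CPM in C57BL/6J and 256 CPM in PWK/PhJ, and 129S1/SvImJ had the lowest of both (64.9 CPM). Within C57BL/6J, the library with the least Fads3 had the highest Kupffer sum of its strain, 293 CPM, against 221 CPM in that with the most. Their part in the Fads3 differences was not tested. The 250 bases before the RefSeq start of Fads3 are shown as those of a scarce gene of the cluster (0.945 CPM per kb). No window was found for Fads1, so the sequences of these neighbours cannot be compared here.
Fads3 chr19:10041298-10041547 plus strand: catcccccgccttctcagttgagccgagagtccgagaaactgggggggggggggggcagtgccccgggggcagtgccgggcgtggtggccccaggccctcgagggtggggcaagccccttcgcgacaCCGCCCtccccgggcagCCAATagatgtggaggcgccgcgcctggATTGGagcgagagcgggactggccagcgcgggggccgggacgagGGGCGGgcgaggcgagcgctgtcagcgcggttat
The window held 2 GC boxes and 2 CCAAT boxes, in each case 1 on either strand.

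Fads6, a gene with a fatty acid desaturase domain at chr11:115279622-115297663 on the minus strand, showed the most pairwise differences. A/J had 151, 192 and 197 CPM, DBA/2J 152, 225 and 111 CPM, and C57BL/6J 97.5, 168 and 178 CPM. WSB/EiJ had 124, 145 and 142 CPM of Fads6, PWK/PhJ 125, 82.8 and 80 CPM, and NZO/HlLtJ 78.8, 82.3 and 120 CPM. NOD/ShiLtJ had 82.9, 72.9 and 73.4 CPM, 129S1/SvImJ 41, 66.3 and 61 CPM, and CAST/EiJ 42.8, 45.2 and 45.3 CPM. The libraries of CAST/EiJ were nearly equal and overlapped only with 129S1/SvImJ, which in turn lay below every library of the other 7 strains. A/J averaged 180 ± 25.2 CPM and CAST/EiJ 44.4 ± 1.42 CPM (SD, n = 3 each), a log2 difference of 2.02 ± 0.25 (SE; edgeR adjusted p 1.84e-06). Of 36 pairs, 21 differed in Fads6, with CAST/EiJ below 7 strains, 129S1/SvImJ below 6, and A/J and DBA/2J each above 5. The estimated counts of Fads6 were not whole in 27 of 27 libraries, and its level is uncertain to the extent that reads were shared with other sequences, which were not identified here. DBA/2J became the highest strain without DBA/2J replicate 4 and with library totals alone.

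Scd2 makes monounsaturated fatty acids and is known as the main stearoyl-CoA desaturase of brain, whereas its neighbour Scd1 serves the adult liver; it lies at chr19:44293674-44306864 on the plus strand. Its highest means were those of the wild-derived strains PWK/PhJ and CAST/EiJ. PWK/PhJ had 10.7, 2.37 and 3.95 CPM and CAST/EiJ 5.82, 2.39 and 3.4 CPM. WSB/EiJ had 2.49, 2.3 and 1.24 CPM of Scd2, C57BL/6J 1.09, 2.71 and 1.77 CPM, and A/J 1.6, 2.67 and 1.7 CPM. NOD/ShiLtJ had 2.4, 1.97 and 1.15 CPM, DBA/2J 1.27, 1.91 and 0.829 CPM, 129S1/SvImJ 0.744, 1.52 and 1.3 CPM, and NZO/HlLtJ 0.561, 1.11 and 0.898 CPM. PWK/PhJ replicate 1 was far above every other library, and 1 other PWK/PhJ library (3.95 CPM) and 2 CAST/EiJ libraries (5.82 and 3.4 CPM) also lay above all libraries of the other 7 strains. The remaining PWK/PhJ and CAST/EiJ libraries, at 2.37 and 2.39 CPM, overlapped with the highest of WSB/EiJ, C57BL/6J, A/J and NOD/ShiLtJ. PWK/PhJ averaged 5.69 ± 4.45 CPM and NZO/HlLtJ 0.857 ± 0.279 CPM (SD, n = 3 each), a log2 difference of 2.72 ± 0.5 (SE; edgeR adjusted p 0.000277). Of 36 pairs, 10 differed, 7 with PWK/PhJ higher and 3 with CAST/EiJ higher, against a median of 8 pairs over all tested genes. The estimated counts were not whole in 26 libraries, so this level is uncertain where reads were shared with other sequences, which were not identified here.

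A single library carried much of the PWK/PhJ value of Scd2. Without PWK/PhJ replicate 1 the log2 difference between PWK/PhJ and NZO/HlLtJ was 1.88 (edgeR adjusted p 0.00421), CAST/EiJ became the highest strain, and PWK/PhJ was called higher than 3 other strains in place of 7. The same library had the highest sums of endothelial markers (859 CPM, against 261 and 304 CPM in the other PWK/PhJ libraries) and of Kupffer cell markers (456 CPM, against 156 and 156 CPM). CAST/EiJ replicate 1, which had the next highest Scd2 level, had an endothelial sum of 71.6 CPM, among the lowest of all libraries. By strain mean of the endothelial sum, PWK/PhJ was highest (475 CPM) and NZO/HlLtJ lowest (87.5 CPM), as for Scd2. Of the 11 endothelial markers called, PWK/PhJ had the highest mean of 11 and NZO/HlLtJ the lowest of 9, against 15.9% and 13.2% of all tested genes. CAST/EiJ, next to PWK/PhJ in Scd2, had an endothelial mean of 150 CPM. The part of these cells in the Scd2 differences was not tested.

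**Figure D2:**
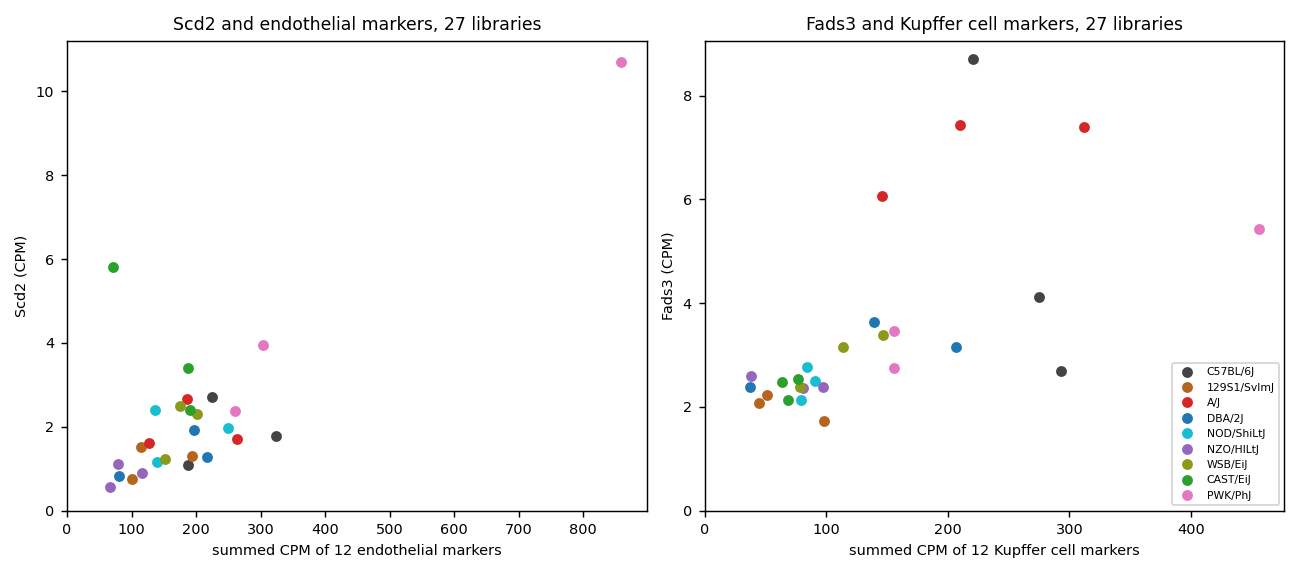
Left, Scd2 against the summed level of 12 liver endothelial markers; right, Fads3 against that of 12 Kupffer cell markers; each point is 1 of 27 libraries, coloured by strain, both axes in CPM from 0. PWK/PhJ replicate 1 has the highest value on both axes of the left panel (859 and 10.7 CPM), and CAST/EiJ replicate 1 has 5.82 CPM of Scd2 at 71.6 CPM of markers.

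Elovl1 lengthens saturated chains for sphingolipids and lies at chr4:118428093-118432953 on the plus strand. DBA/2J had 77.1, 94.2 and 55.7 CPM, WSB/EiJ 72.4, 54.9 and 43.4 CPM, and NZO/HlLtJ 55.4, 56 and 44.1 CPM. A/J had 41.8, 40.7 and 65.4 CPM of Elovl1, NOD/ShiLtJ 47.1, 48 and 37 CPM, and C57BL/6J 29.3, 49.8 and 50.3 CPM. PWK/PhJ had 52.7, 38.5 and 24.4 CPM, CAST/EiJ 29.7, 23.3 and 32.7 CPM, and 129S1/SvImJ 23.5, 26.4 and 26.7 CPM. The low strains 129S1/SvImJ and CAST/EiJ did not overlap with DBA/2J, WSB/EiJ, NZO/HlLtJ, A/J or NOD/ShiLtJ. DBA/2J averaged 75.7 ± 19.3 CPM and 129S1/SvImJ 25.5 ± 1.76 CPM (SD, n = 3 each), a log2 difference of 1.57 ± 0.26 (SE; edgeR adjusted p 9.37e-05). Of 36 pairs, 13 differed in Elovl1, with DBA/2J above 5 strains, 129S1/SvImJ below 6 and CAST/EiJ below 4. Elovl1 overlaps Cdc20 on the opposite strand, and the library kit's name does not state a stranded protocol, so reads of the overlap cannot be told apart; Cdc20 reached at most 4.41 CPM. The window before the first RefSeq start of Elovl1 is shown because this gene ordered the strains otherwise than the core enzymes.
Elovl1 chr4:118427843-118428092 plus strand: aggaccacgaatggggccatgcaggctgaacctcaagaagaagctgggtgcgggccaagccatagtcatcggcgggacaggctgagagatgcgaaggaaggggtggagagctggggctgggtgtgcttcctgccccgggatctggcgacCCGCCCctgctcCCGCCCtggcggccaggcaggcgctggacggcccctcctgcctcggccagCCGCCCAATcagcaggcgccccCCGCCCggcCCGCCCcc
It held 5 GC boxes, all on the opposite strand, and 1 CCAAT box that overlapped with 1 of them. The window of the second RefSeq start of Elovl1, chr4:118429451-118429750, held 2 GC boxes and 2 matches to the sterol element core, 1 beginning 70 bases before the start and 1 within the first 50 bases of the transcript. No other window of the members found in RefSeq held that core.

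**Figure D3:**
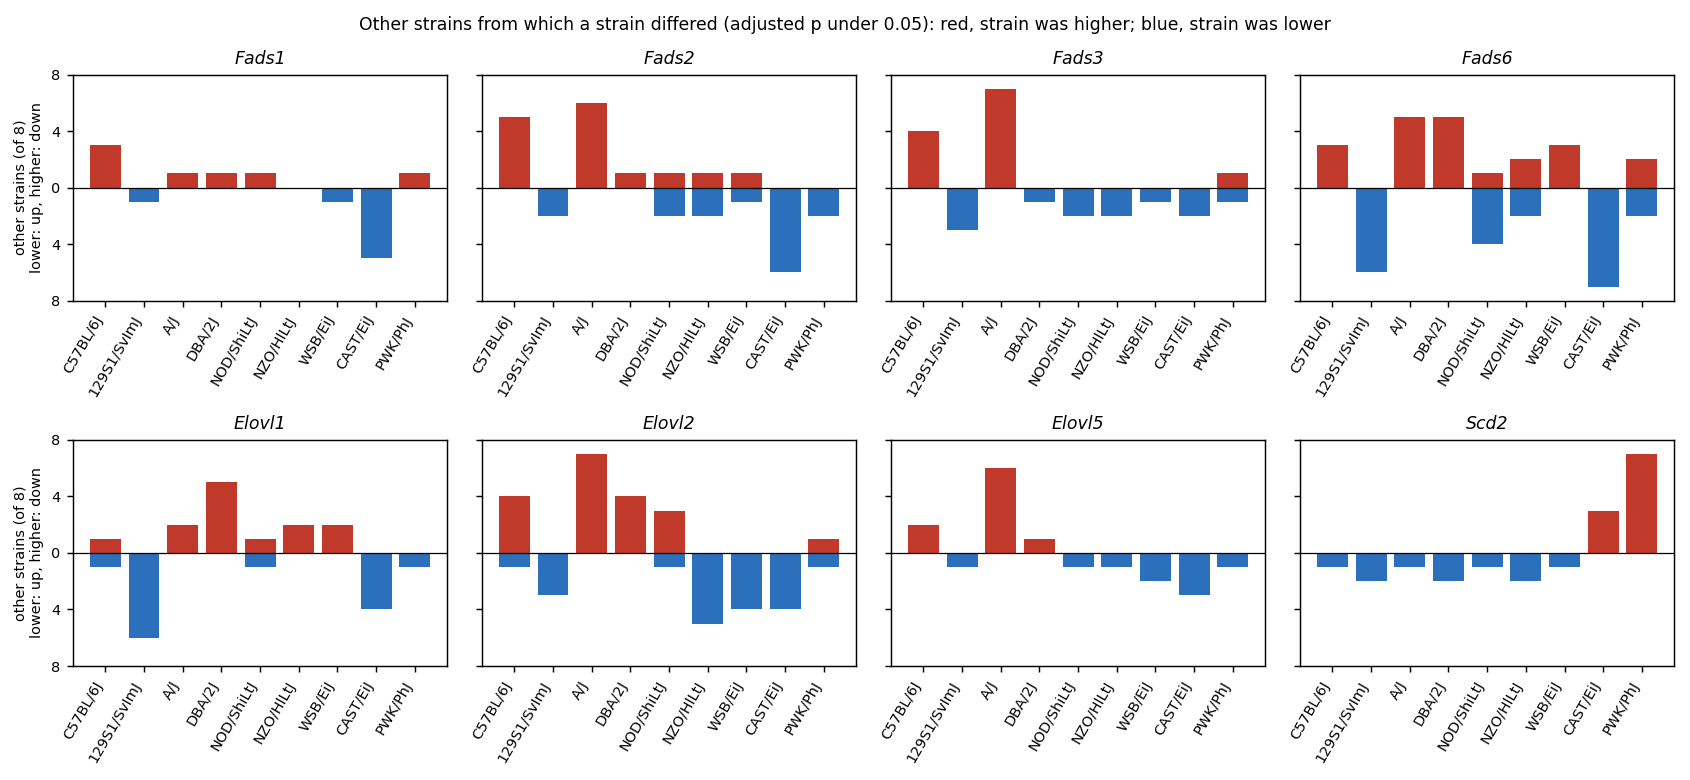
For each gene, the number of the other 8 strains from which a strain differed (edgeR, adjusted p under 0.05), drawn upwards in red where the strain was higher and downwards in blue where it was lower. A/J is on the lower side in 1 pair, for Scd2, and CAST/EiJ on the higher side in 3 pairs, all for Scd2; with library totals alone A/J was also lower in 2 pairs for Elovl1, and CAST/EiJ was higher in 7 for Scd2 and 1 for Elovl2.

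Seen by strain, A/J was called higher than another strain in 6 pairs for Fads2, 7 for Fads3, 5 for Fads6, 7 for Elovl2, 6 for Elovl5, 2 for Elovl1 and 1 for Fads1, and it was the lower strain in 1 pair, against PWK/PhJ for Scd2. With library totals alone A/J was higher in 3 pairs for Fads2, 6 for Fads3, 4 for Fads6, 5 for Elovl2 and 3 for Elovl5. On that scale it was higher in 0 pairs for Elovl1 and 1 for Fads1. CAST/EiJ was called lower in 5 pairs for Fads1, 6 for Fads2, 7 for Fads6, 4 each for Elovl1 and Elovl2, 3 for Elovl5 and 2 for Fads3, and higher in 3 for Scd2. Set directly against CAST/EiJ, A/J was higher in 7 of the 8 genes, by 0.79 (Elovl1) to 2.02 (Fads6) on the log2 scale, and Scd2 did not pass the test (edgeR adjusted p 0.154). With library totals alone A/J was higher in 5 of the 8: Fads1 (0.5, adjusted p 0.0982) and Elovl1 (0.28, adjusted p 0.345) did not pass, and Scd2 was lower in A/J by 1.44 (edgeR adjusted p 0.0192). Among all 14482 tested genes, A/J had the highest mean in 11.4%, a smaller share than CAST/EiJ, PWK/PhJ, WSB/EiJ and NZO/HlLtJ. CAST/EiJ had the lowest mean in 17% of them, the largest such share of any strain. A/J had the highest mean of 5 of the 8 genes, or 62.5%, and CAST/EiJ the lowest of 4, or 50%; with library totals alone these counts were 3 and 2, against 3.8% and 10.5% of all tested genes. The summed hepatocyte markers averaged 273000 CPM in A/J and 110000 CPM in CAST/EiJ, the highest and lowest strain means. Single markers were less uniform: of 9 called, A/J had the highest mean of 3 and the lowest of 2. WSB/EiJ had the highest mean of 5, against 12.3% of all tested genes, and CAST/EiJ the lowest of 5. The part of these markers in the differences between A/J and CAST/EiJ was not tested. NOD/ShiLtJ and WSB/EiJ were neither the highest nor the lowest strain for any of the 8 genes, but with library totals alone WSB/EiJ was lowest for 3.

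**Figure D4:**
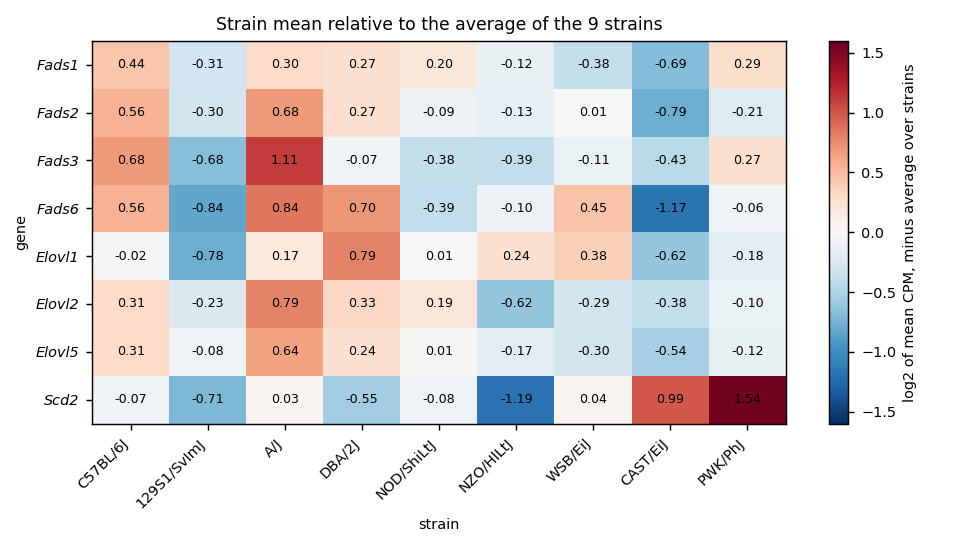
Log2 of the mean CPM of each gene in each strain, minus the gene's average over the 9 strains, with genes in rows, strains in columns and red above and blue below the average. The core genes run between 0.79 (Elovl2 in A/J) and -0.79 (Fads2 in CAST/EiJ), while Scd2 is at 1.54 in PWK/PhJ and 0.99 in CAST/EiJ; values shift with the scale, by -0.28 for A/J and 0.2 for CAST/EiJ with library totals alone.

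Strain means of the core genes were positively correlated, but whether the correlations passed the test depended on the scale. Pearson's r between strain means of log2 CPM was computed for the 28 pairs of genes over 9 strains, with exact two-sided permutation tests. It was 0.924 for Fads2 and Elovl5 (adjusted p 0.0106, Spearman's rho 0.767), 0.899 for Elovl2 and Elovl5 (adjusted p 0.0118, rho 0.933) and 0.894 for Fads2 and Fads6 (adjusted p 0.0106, rho 0.917). Without the 2 strains farthest from the median of the first gene, these values were 0.786, 0.933 and 0.762. The neighbours Fads1 and Fads2 had an r of 0.757 (exact permutation, adjusted p 0.0446, rho 0.7), and 0.682 without CAST/EiJ and WSB/EiJ. Of the 28 pairs, 11 had an adjusted p under 0.05 by r and 7 by rho. Several of these rested on few strains: without A/J and C57BL/6J, r fell to 0.291 for Fads3 and Elovl2 and to 0.128 for Fads3 and Elovl5. Scd2 had values between -0.357 (with Elovl1) and 0.249 (with Fads3), none of which passed. The number of pairs that passed was 3 without C57BL/6J replicate 4, without A/J replicate 3 or without CAST/EiJ replicate 1, and 7 without NOD/ShiLtJ replicate 2. With library totals alone, added as an alternative after the data were seen, none of the 28 pairs passed by r in the exact permutation test (4 had an unadjusted p under 0.05) and 1 passed by rho; r was then 0.835 for Fads2 and Elovl5, 0.823 for Elovl2 and Elovl5, 0.761 for Fads2 and Fads6 and 0.662 for Fads1 and Fads2. On that scale, leaving out the 2 strains farthest from the median gave 0.774, 0.481, 0.476 and -0.0333 for these pairs, so that the relation of Fads1 and Fads2 over strain means rested on CAST/EiJ and WSB/EiJ.

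How libraries of the same strain varied together is given as a description, and it depended on the scale for many pairs. The deviations of the 27 libraries from their strain means had an r of 0.929 for Fads1 and Fads2, the highest of the 28 pairs, and 0.855 for Fads2 and Elovl5. The median over the pairs was 0.628 and the lowest value 0.312, for Elovl2 and Scd2. With library totals alone the values were lower, with 0.893 for Fads1 and Fads2, 0.761 for Fads2 and Elovl5, a median of 0.46 and a lowest value of -0.118, for Fads6 and Elovl2. Libraries that were low in several genes were DBA/2J replicate 4, C57BL/6J replicate 1, WSB/EiJ replicate 4 and PWK/PhJ replicate 3. These deviations share a library and its scaling factor.

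**Figure D5:**
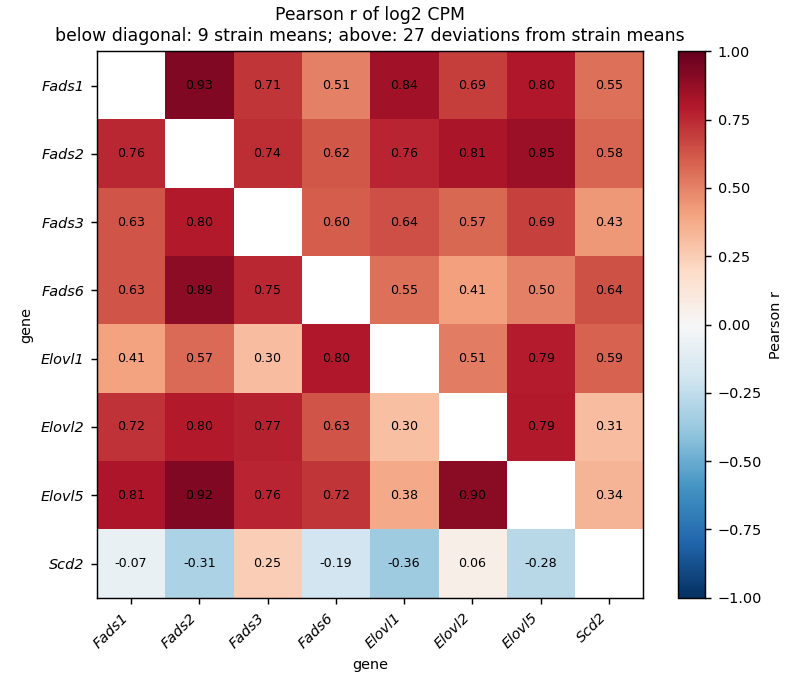
Pearson's r of log2 CPM for each pair of genes, below the diagonal over 9 strain means and above it over the deviations of 27 libraries from their strain means, on a scale from -1 to 1. Below the diagonal the row of Scd2 stays between -0.36 and 0.25, while Fads2, Elovl2 and Elovl5 reach at least 0.796 with each other; with library totals alone these pairs had 0.656 to 0.835.

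Genes whose level ran most like that of each member over the 27 libraries were taken among 12547 genes, as a description. For Fads1 they were Pon1 (r 0.853), the paraoxonase of high-density lipoprotein, Srebf2 (0.852), the transcription factor of cholesterol synthesis, and Tm7sf2 (0.846), a sterol reductase. For Fads2 they were Tspan31 (0.894), Twsg1 (0.891) and Tmx3 (0.888), and for Fads6 Slc39a1 (0.918), Ctso (0.911) and Ifnar1 (0.896). Elovl2 ran most like Snx25 (0.876), Pianp (0.866) and Slc38a6 (0.865), and Elovl5 like Klhdc8b (0.865), Galnt1 (0.854) and Tspan12 (0.836). Pianp averaged only 0.269 CPM, and its r with Elovl2 over deviations from strain means was 0.316. Fads3 was most like Sgpp1 (0.89), a sphingosine phosphate phosphatase, Elmod2 (0.875) and Rnft1 (0.873), and Elovl1 like Cutal (0.855), Atf6b (0.851) and Mcfd2 (0.828). For Scd2 the values were lower, with Ccdc17 and Qtrt2 both at 0.787 and Cdc42ep2 at 0.785. The 27 libraries of 9 strains are not independent, and these values carry no test.

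All 6 other desaturases and elongases that passed the filter differed among the strains (Scd3, Elovl4 and Degs2 did not pass it), and their median log2 range was 3.44, against 1.51 for the 8 members. Of these 6, Elovl7 and Scd4 averaged only 0.331 and 0.268 CPM, with highest means of 1.92 CPM in 129S1/SvImJ and 1.69 CPM in CAST/EiJ. They may have passed the filter through those strains alone, and their log2 ranges of 4.41 and 4.25 raised the median. The remaining genes had log2 ranges of 3.67, 3.21, 1.63 and 1. For the single genes that follow, which are not members, the strains with the highest and the lowest mean are named. The adjusted p is that of the strain effect over all 9 strains, not of a test between the named strains. Elovl3, an elongase of saturated chains, had 21.7 ± 2.6 CPM in A/J and 1.69 ± 0.518 CPM in PWK/PhJ (SD, n = 3 each; edgeR strain effect, adjusted p 2.16e-06). Scd1, the stearoyl-CoA desaturase of liver, had 8040 ± 5200 CPM in C57BL/6J and 848 ± 599 CPM in CAST/EiJ (SD, n = 3 each; edgeR strain effect, adjusted p 0.000282), and its estimated counts were not whole in 27 libraries. Elovl6, which lengthens palmitate, had 170 ± 3.5 CPM in WSB/EiJ and 56.5 ± 10.4 CPM in CAST/EiJ (SD, n = 3 each; edgeR strain effect, adjusted p 0.00309).

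Partners of the elongation cycle and electron donors of the desaturases differed among strains in 9 of 10 tested genes, with a median log2 range of 1.22. Cytochrome b5, encoded by Cyb5a, had 302 ± 83.3 CPM in A/J and 735 ± 48.8 CPM in 129S1/SvImJ (SD, n = 3 each; edgeR strain effect, adjusted p 0.000217). The outer mitochondrial form Cyb5b had 153 ± 35.5 CPM in A/J and 368 ± 26.4 CPM in NZO/HlLtJ (SD, n = 3 each; edgeR strain effect, adjusted p 1.36e-05), and the reductase Cyb5r1 0.861 ± 0.115 CPM in CAST/EiJ and 5.94 ± 1.41 CPM in C57BL/6J (SD, n = 3 each; edgeR strain effect, adjusted p 3.53e-06). A/J and NZO/HlLtJ each had the lowest mean in 3 of the 9 genes called in this list, and each had the lowest in 13.2% of all tested genes. The counts were 4 for A/J and 2 for NZO/HlLtJ with library totals alone, against 23.7% and 6.67% of all tested genes. With library totals alone the largest log2 difference between strains was 1.74 for Cyb5a and 1.79 for Cyb5b, against 1.28 and 1.26 with TMM.

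Genes of the peroxisomal step to docosahexaenoic acid differed in 10 of 11 cases, with a median log2 range of 1.08. The transporter Abcd2 had 102 ± 10.9 CPM in C57BL/6J and 34.3 ± 6.81 CPM in PWK/PhJ, and the oxidase Acox3 45.5 ± 4.53 CPM in WSB/EiJ and 19.5 ± 4.75 CPM in PWK/PhJ (SD, n = 3 each; edgeR strain effect, adjusted p 1.91e-06 and 4.87e-05). PWK/PhJ had the lowest mean in 4 of the 10 genes called (3 with library totals alone), and in 14% of all tested genes.

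Among regulators of desaturase and elongase genes, 13 of 18 differed, close to the share of all genes, with a median log2 range of 1.14. Insig1, which retains the sterol-sensing complex in the endoplasmic reticulum, had 659 ± 219 CPM in DBA/2J and 90.2 ± 31.4 CPM in CAST/EiJ (SD, n = 3 each; edgeR strain effect, adjusted p 0.00014). The nuclear receptor Pparg had 6.46 ± 0.35 CPM in 129S1/SvImJ and 0.107 ± 0.0339 CPM in PWK/PhJ, and the coactivator Ppargc1b 5.87 ± 0.518 CPM in CAST/EiJ and 1.71 ± 0.632 CPM in NOD/ShiLtJ (SD, n = 3 each; edgeR strain effect, adjusted p 3.31e-06 and 0.0024). Targets of sterol response element binding protein 1 differed in 10 of 12 cases, with a median log2 range of 1.61, and CAST/EiJ had the lowest mean in 6 of the 10, against 17% of all tested genes. It was lowest in 4 with library totals alone, against 10.5%. Pmvk of cholesterol synthesis had 45.5 ± 6.43 CPM in NOD/ShiLtJ and 3.93 ± 0.33 CPM in CAST/EiJ, and Me1, malic enzyme, 72.6 ± 19 CPM in A/J and 280 ± 99.9 CPM in PWK/PhJ (SD, n = 3 each; edgeR strain effect, adjusted p 1.42e-08 and 1.06e-05). Aacs, acetoacetyl-CoA synthetase, had 65.4 ± 5.8 CPM in NZO/HlLtJ and 5.81 ± 0.574 CPM in CAST/EiJ (SD, n = 3 each; edgeR strain effect, adjusted p 0.0156), but the strain effect missed the threshold when any 1 CAST/EiJ library was left out (adjusted p 0.0639, 0.057 and 0.0655).

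Acyl-CoA synthetases, acyltransferases and carriers of polyunsaturated fatty acids differed in 16 of 17 tested genes, with a median log2 range of 1.15, and C57BL/6J and A/J each had the highest mean in 5 of them, against 7.31% and 11.4% of all tested genes. These counts were 4 and 3 with library totals alone, against 4.94% and 3.8%. Mfsd2a, a transporter of lysophosphatidylcholine that carries docosahexaenoic acid, had 136 ± 132 CPM in A/J and 18.4 ± 16.3 CPM in NZO/HlLtJ (SD, n = 3 each; edgeR strain effect, adjusted p 0.00396), with a wide spread within both. The synthetase Acsl3 had 56.4 ± 22.1 CPM in C57BL/6J and 10.2 ± 2.12 CPM in CAST/EiJ, and the fatty acid binding protein Fabp2 11 ± 2.52 CPM in WSB/EiJ and 35 ± 5.85 CPM in CAST/EiJ (SD, n = 3 each; edgeR strain effect, adjusted p 8.73e-07 and 0.000246). Genes of the release and oxygenation of these fatty acids differed in 10 of 14 cases, with a median log2 range of 1.93. Pnpla3, a lipase whose human form is tied to fatty liver, had 0.952 ± 0.885 CPM in WSB/EiJ and 32.6 ± 7.25 CPM in PWK/PhJ, and the epoxide hydrolase Ephx2 411 ± 42 CPM in 129S1/SvImJ and 83.7 ± 4.65 CPM in PWK/PhJ (SD, n = 3 each; edgeR strain effect, adjusted p 3.26e-06 and 1.15e-08). Ptgs1, a cyclooxygenase, had 7.22 ± 0.647 CPM in C57BL/6J and 1.75 ± 0.29 CPM in CAST/EiJ (SD, n = 3 each; edgeR strain effect, adjusted p 0.00126).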

How the data were processed

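Polyadenylated RNA of hepatocytes was made into libraries with the TruSeq RNA Sample Prep Kit v2, per the labels' protocols. The authors deposited a table of estimated counts per Ensembl gene, not scaled to depth, of which 14.7% of values were not whole. The submitters' processing notes name GRCm38, mm10, FastQC 0.11.5 and DESeq2 without a role. The aligner, the counting program and the genome used for each strain are not given in the sources used here, and an alignment of divergent strains to a single reference can lower their counts.

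Estimated counts were rounded, which changed library totals by at most 0.000261%. Totals ran from 17015932 to 35078483, so that 1 count was 0.0253 to 0.0516 CPM. Symbols were those of GENCODE M21, for 42462 of 43346 gene IDs. Genes were kept with edgeR's filterByExpr and library sizes scaled with TMM factors of 0.722 to 1.23. edgeR 4.0.16 in R 4.3.3 was used for quasi-likelihood tests in a single fit on all 27 libraries with strain as the only factor. P-values were adjusted by Benjamini and Hochberg, over 14482 genes for the strain effect and over 521352 gene and pair tests for the 36 pairs, and called under 0.05. The main tests used no block, since replicate numbers did not pair libraries. P-values measure the spread between the libraries, which the labels call biological replicates. Within strains no libraries agreed within counting noise. Variance shares and correlations were computed on log2 CPM (prior count 2), which lessens differences of scarce genes. The within-library ratios of 2 gene pairs were tested by permuting strain labels, a test chosen after the values were seen. Promoter sequences were RefSeq's (GRCm38.p6); windows were found for Elovl1, Elovl2, Elovl5, Fads2, Fads3 and Fads6.

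All 8 members were named. Of each pathway list, the 3 called genes with the largest log2 range and at least 1 CPM were named (1 is not reported here), and of each member the 3 tested genes with the highest r. Members and lists were chosen with earlier results of these data known. Alternatives were DESeq2 1.42.0, median-of-ratios size factors, library totals alone, no filter, the replicate block, a filter at a mean of 10 counts, the 6 libraries of each pair, another prior count and each library left out. The strain effect fit was tested on simulated data.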

Additional observations from a re-analysis of the deposited data

How the results depend on the processing

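All 8 members kept a called strain effect under every alternative fit, and the difference between the highest and the lowest strain of the main analysis stayed called for each; none reversed. Leaving out each library in turn gave 10352 to 11245 genes called, 8 members in each fit, 20.5% to 24.2% of gene and pair tests called and 94 to 121 of the 288 tests on members. Without a filter on low counts 13.3% of gene and pair tests were called, over more genes. Correlations were less stable: 3 to 13 of the 28 pairs passed with a library left out and 0 with library totals alone, which was added after the data were seen. The pairs of strains called for Fads1 numbered 11 with library totals alone, 11 without WSB/EiJ replicate 2 and 3 with the replicate block. The causes were not tested. Replicate numbers did not pair libraries: same-numbered libraries had a median r of 0.0232 in their deviations from strain means, 17 of 76 such pairs were over 0.1, and 7 of 27 libraries correlated best with their own number. With the replicate block 9350 genes, 8 members and 79 of the 288 tests on members (18.6% of all gene and pair tests) were called. Fads3 and Scd2 rest on 48 to 207 and 22 to 269 counts per library, the lowest counts among the members.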
